A study of Mus musculus with 14 samples.

Results

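The genes described here are 39 microglia and macrophage genes, chosen by symbol as known genes of these cells and not by how they moved in these tumours. A member was measured where a probe annotated to its symbol was detected (detection p under 0.05) on at least 3 of 14 arrays. This held for 32 of the 39, among 11786 genes measured in all. The study compared primary glioblastomas of mice with a mixed genetic background, 1 tumour per single-colour Illumina bead array. In Type 1, tamoxifen activated Nestin-CreERT2, a Cre recombinase under the promoter of Nestin, a gene of neural stem and progenitor cells. In Type 2 it activated NG2-CreERTM, under the promoter of the gene for NG2, a proteoglycan of oligodendrocyte progenitors and pericytes. Both types shared floxed alleles of Trp53 (both copies) and Nf1 (1 copy) and a Cre-dependent tdTomato reporter. At 6 to 8 weeks of age, all mice were gavaged once with tamoxifen, 10 mg for each 20 g of weight. They were then kept until they showed symptoms, so their age at sampling differed and is not used here. Each type had 7 tumours. Batch 1 held replicates 1 to 3 of Type 1 and 1 to 4 of Type 2, and batch 2 held replicates 4 to 7 of Type 1 and 5 to 7 of Type 2.

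Microglia are the macrophages of the brain. They settle there early in development, renew themselves in place and are kept alive by signalling through the receptor Csf1r, while the transcription factor PU.1, encoded by Spi1, turns on much of their gene programme. Glioblastomas also draw in monocytes from the blood, which become macrophages inside the tumour, and further macrophages line the blood vessels. These cells share many genes, and a smaller set separates the resident from the incoming cells. The members were therefore ordered by role, with 9 resident microglia genes, 7 genes of infiltrating and perivascular macrophages, 12 genes shared by myeloid cells, 3 complement C1q genes, 5 immune-receptor (ITAM) adaptor and Fc receptor genes, and 3 genes of ligands and secreted proteins. Whole tumours were measured, so fewer cells of a type and less RNA per cell cannot be told apart.

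Since PU.1 acts across these cells, the RefSeq promoters of the measured members were searched for its core motif, GAGGAAG, on both strands over the 250 bases before the gene start (build GRCm38.p6). Of the 32 measured members, 22 had a promoter in that table, and 8 of the 22 (36.4%) held the motif, against 12% of 27025 genes. The 8 were P2ry13, Fcrls, Mrc1, F13a1, Itgam, Laptm5, C1qc and Trem2. Examples from the resident, the infiltrating, the complement and the receptor genes are printed 5′ to 3′ on the strand that carries the motif, with the motif in capitals. They lie at chr3:59210894-59210960 on the minus strand (P2ry13), chr3:87263632-87263698 on the minus strand (Fcrls), chr13:37050274-37050340 on the minus strand (F13a1), chr2:14229348-14229413 on the minus strand (Mrc1), chr4:136893072-136893138 on the plus strand (C1qc) and chr17:48346330-48346396 on the minus strand (Trem2). A match of letters is a description and not a binding site.
P2ry13: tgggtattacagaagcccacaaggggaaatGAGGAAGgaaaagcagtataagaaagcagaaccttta
Fcrls: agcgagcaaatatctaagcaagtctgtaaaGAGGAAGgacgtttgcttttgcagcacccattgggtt
F13a1: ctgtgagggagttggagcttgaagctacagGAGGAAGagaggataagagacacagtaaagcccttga
Mrc1: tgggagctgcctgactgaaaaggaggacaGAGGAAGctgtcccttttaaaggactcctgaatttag
C1qc: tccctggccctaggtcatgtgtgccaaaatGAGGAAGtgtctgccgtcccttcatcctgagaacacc
Trem2: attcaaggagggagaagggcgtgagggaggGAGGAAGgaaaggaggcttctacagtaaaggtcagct

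Values are background-corrected, quantile-normalized log2 signals, called levels here, and their precision is limited by how many arrays there were. Levels of different genes come from different probes and were not compared with each other. Between 19299 and 20868 probes were detected per array. Of the 5 chips, none carried both types, so chip and type cannot be told apart. Type 1 replicate 1 and Type 2 replicate 5 stood apart in choroid plexus genes, with a mean over 6 of 9 listed markers 4.40 and 2.25 above the mean of all tumours on the log2 scale, and some values are therefore given without them too. Differences between types are Type 1 minus Type 2 from a limma model with batch as a term. Genes were called at a Benjamini-Hochberg adjusted p under 0.05 over all 11786 genes.

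Of the 7 members that were not measured, Cd68, Spp1 and Fcgr3 had no probe under their symbol. P2ry12, an ADP receptor used to mark resting microglia, had 1 probe, which was detected on 0 of 14 arrays. Ccr2, the chemokine receptor of inflammatory monocytes, had 2 probes and Ptprc, the pan-leukocyte gene for CD45, had 4, all detected on 0 arrays. Probes that were not detected do not show that the cells were absent. The resident genes Tmem119, P2ry13 and Cx3cr1 and the shared myeloid genes Laptm5 and Cd53 were detected on all 14 arrays. How well the undetected probes work was not tested. Cd163, a haemoglobin scavenger receptor of perivascular macrophages, also fell outside the rule, with its better probe detected on 1 array and the other on 0. Itgam, which encodes the integrin subunit CD11b, lay just inside it, with 4 arrays. Detection held on all 14 arrays for 26 of the 32 measured members. The other 6 were Siglech (10 arrays), Mrc1 (12), F13a1 (8), Arg1 (9), Itgam (4) and Spi1 (6).

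The first comparison asked whether tumours begun from the 2 drivers differ in these genes. None of the 32 measured members was called between Type 1 and Type 2 by limma, where 4.64% of all genes were called. At an unadjusted p under 0.05 there were 3 members, Irf8, Fcgr2b and Olfml3, against 21.8% of all genes. Of the 32, 20 had a lower fitted level in Type 1 and 12 a higher one, with a median difference of -0.14 against -0.01 over all genes. By role, the median difference was -0.03 over 8 resident microglia genes, -0.48 over 5 infiltrating and perivascular genes, -0.30 over 10 shared myeloid genes, 0.22 over 3 C1q genes, 0.00 over 4 adaptor and Fc receptor genes and -0.00 over 2 ligand genes. Most members had fitted differences above 0 in batch 1 and below 0 in batch 2, described after the genes. No member was called in the test of that change. Calls depended on single tumours. Irf8 was called without Type 1 replicate 3 (495 of 11786 genes called), without Type 1 replicate 7 (567) or without Type 2 replicate 1 (524). Ctss was called as well without Type 1 replicate 3.

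**Figure D1:**
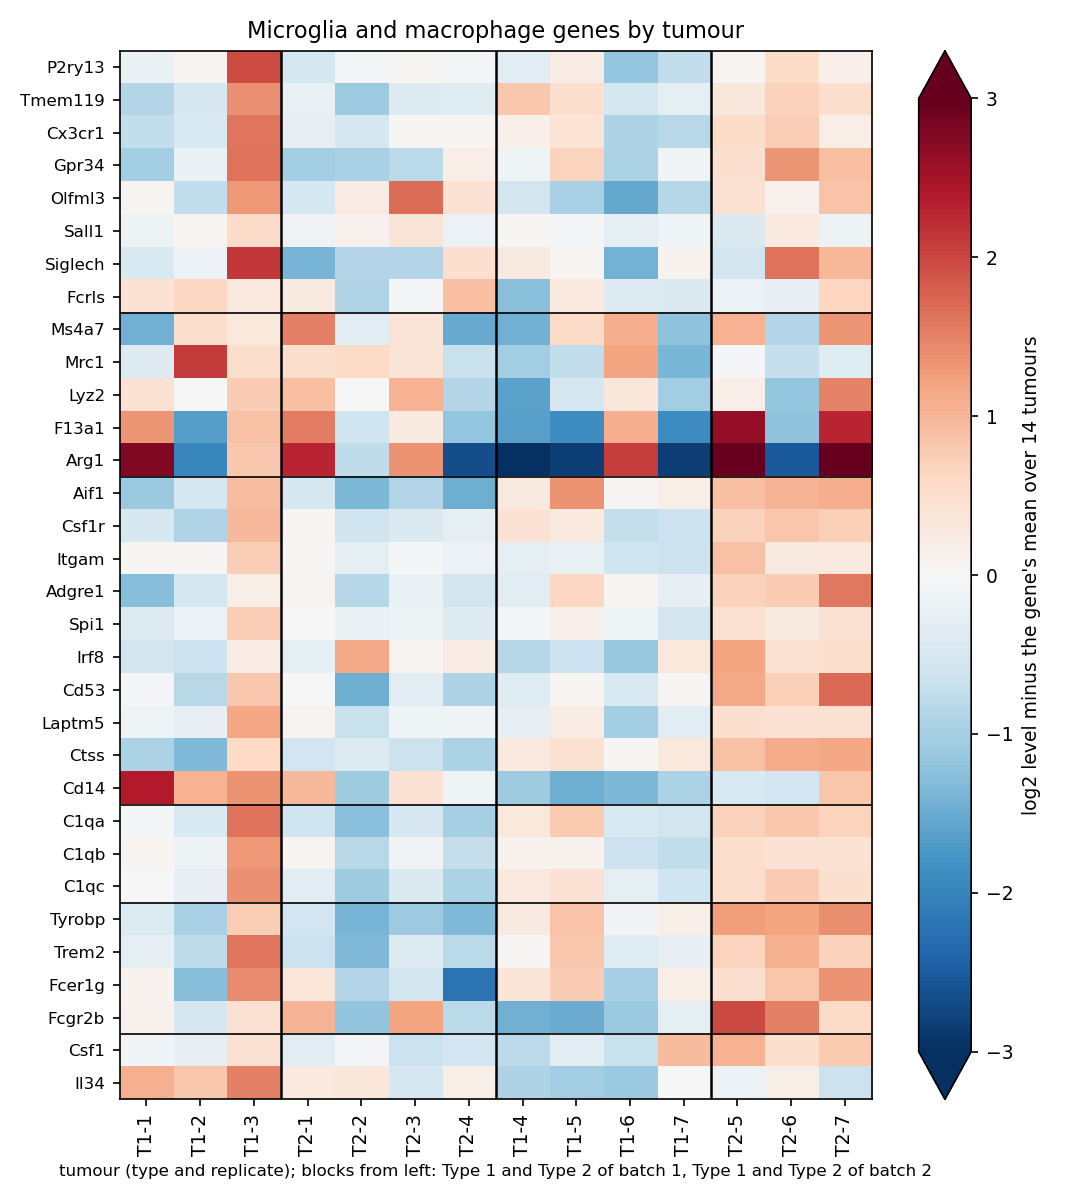
Level of each measured member (rows, grouped by role from resident microglia genes at the top to ligands at the bottom) in each of the 14 tumours (columns), as the log2 level minus the gene's mean over all tumours. T1 is Type 1 and T2 Type 2, followed by the replicate number. The column of Type 1 replicate 3 is the highest of all 14 tumours for 15 of 32 genes, and Arg1 and F13a1 vary more than the other rows.

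Among the resident microglia genes, Tmem119 encodes a membrane protein that marks microglia in the adult brain. In batch 1 its level was 7.26, 7.63 and 9.49 in Type 1 replicates 1 to 3, and 7.92, 7.03, 7.74 and 7.77 in Type 2 replicates 1 to 4. In batch 2 it was 8.94, 8.64, 7.60 and 7.85 in Type 1 replicates 4 to 7, and 8.48, 8.83 and 8.65 in Type 2 replicates 5 to 7. Type 1 replicate 3 was the highest of all tumours, and the types overlapped in both batches. The Tmem119 difference between types was 0.06 ± 0.34 (SE), with a confidence interval (limma, 95%) from -0.68 to 0.79 and a limma adjusted p of 0.947. Sall1 encodes a zinc finger transcription factor that keeps microglial identity and is also active in neural progenitors. Batch 1 gave Sall1 levels of 8.48, 8.69 and 9.20 in Type 1 replicates 1 to 3, and 8.53, 8.76, 9.01 and 8.46 in Type 2 replicates 1 to 4. Batch 2 gave 8.68, 8.60, 8.36 and 8.50 in Type 1 replicates 4 to 7, and 8.21, 8.92 and 8.47 in Type 2 replicates 5 to 7. Its range over the 14 tumours, 1.00 on the log2 scale, was the narrowest of the 32 measured members, and the types overlapped in each batch. The Sall1 difference between types was 0.05 ± 0.16 (SE), adjusted p = 0.888 by limma.

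Cx3cr1, the receptor for the neuronal chemokine fractalkine, ranged from 8.62 to 11.14 and had a mean of 9.43 ± 0.91 (SD) over the 7 Type 1 tumours and 9.66 ± 0.44 (SD) over the 7 Type 2 tumours. P2ry13, an ADP receptor, ranged from 7.89 to 10.998, and Gpr34, a receptor for lysophosphatidylserine, from 6.21 to 8.86. Siglech, a sialic acid-binding lectin, ranged from 4.73 to 8.28 and was not detected in Type 1 replicate 6 or in Type 2 replicates 1 to 3. All 4 genes were highest in Type 1 replicate 3. Fcrls, an Fc receptor-like gene of mouse microglia, ranged from 10.67 to 12.82 and was highest in Type 2 replicate 4. Olfml3, which encodes a secreted glycoprotein, ranged from 8.49 to 11.34 in Type 1 and from 9.51 to 11.70 in Type 2. Its difference between types was -0.85 ± 0.38 (SE), and with an adjusted p of 0.208 by limma it was not called. Differences of the other 7 resident genes lay between -0.25 (Cx3cr1) and 0.11 (Siglech).

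Among the infiltrating and perivascular genes, levels ranged widely within each type. Arg1 encodes arginase 1, which breaks down arginine and marks alternatively activated macrophages. Its level in batch 1 was 10.48, 5.74 and 8.51 in Type 1 replicates 1 to 3, and 9.98, 6.95, 9.05 and 5.05 in Type 2 replicates 1 to 4. In batch 2 it was 4.66, 4.89, 9.77 and 4.89 in Type 1 replicates 4 to 7, and 11.79, 5.19 and 10.92 in Type 2 replicates 5 to 7. Levels from 8.51 up were found in Type 1 replicates 1, 3 and 6 and in Type 2 replicates 1, 3, 5 and 7. Arg1 was not detected in Type 1 replicates 4, 5 and 7 or in Type 2 replicates 4 and 6, and the remaining tumours, replicate 2 of each type, read 5.74 and 6.95. Both types therefore held tumours at either end. The Arg1 difference between types was -1.38 ± 1.29 (SE) and not called (limma adjusted p = 0.583). The 2 tumours high in choroid plexus genes were both high in Arg1, Type 1 replicate 1 at 10.48 and Type 2 replicate 5, the highest, at 11.79. Without these 2, which come from different types, the Arg1 difference between types was -1.32.

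F13a1, which encodes the A subunit of clotting factor XIII and marks monocyte-derived macrophages, followed the same tumours. It was detected in 8 tumours, at 5.95 in Type 2 replicate 2 and between 6.83 and 9.19 in the 7 tumours high in Arg1. It was not detected in the other 6 tumours, among them Type 1 replicate 2. Lyz2, the lysozyme gene of myeloid cells, was measured at 12.22, 11.80 and 12.54 in Type 1 replicates 1 to 3, and 12.70, 11.78, 12.83 and 10.90 in Type 2 replicates 1 to 4 in batch 1. The batch 2 levels of Lyz2 were 10.19, 11.28, 12.14 and 10.74 in Type 1 replicates 4 to 7, and 11.996, 10.62 and 13.28 in Type 2 replicates 5 to 7. The lowest Lyz2 levels, 10.19 to 10.90, lay in 4 of the 5 tumours without detected Arg1, and the fifth read 11.28. Lyz1 is a close paralogue of Lyz2, and how far each probe picks up the other was not tested. The Lyz2 difference between types was -0.37 ± 0.44 (SE), adjusted p = 0.679 by limma.

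Mrc1 encodes the mannose receptor CD206 of perivascular and alternatively activated macrophages. Batch 1 levels of Mrc1 were 5.92, 8.40 and 6.83 in Type 1 replicates 1 to 3, and 6.84, 6.87, 6.69 and 5.65 in Type 2 replicates 1 to 4. Those of batch 2 were 5.27, 5.57, 7.49 and 4.92 in Type 1 replicates 4 to 7, and 6.24, 5.62 and 5.94 in Type 2 replicates 5 to 7. It was highest in Type 1 replicate 2, a tumour low in Arg1, and not detected in Type 1 replicates 4 and 7. The types overlapped, and Mrc1 was not called (difference 0.21 ± 0.43 (SE), limma adjusted p = 0.828). Ms4a7, a membrane protein gene of macrophages, ranged from 6.70 to 9.25 in Type 1 and from 6.64 to 9.66 in Type 2, with a difference of -0.48 ± 0.56 (SE).

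**Figure D2:**
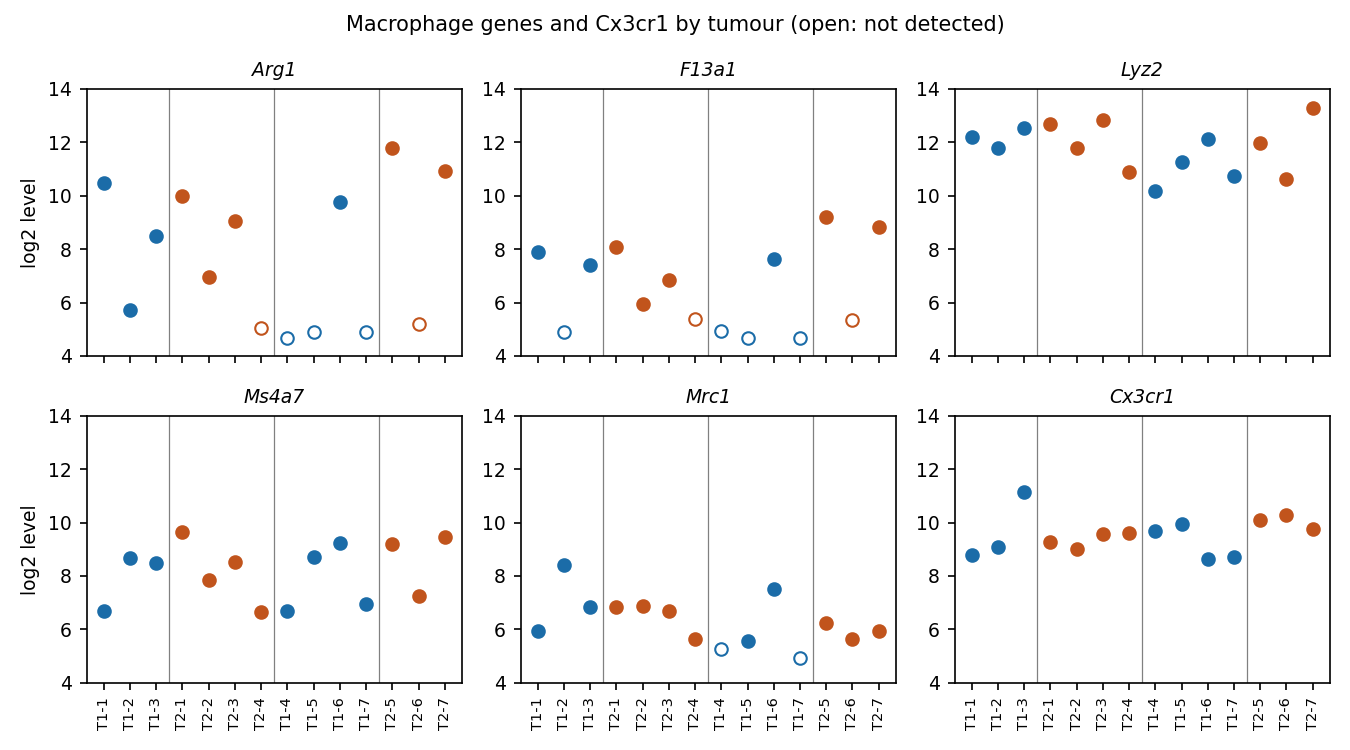
Log2 level of 5 infiltrating and perivascular macrophage genes and of the microglia gene Cx3cr1 in each tumour. Blue marks Type 1 (T1), orange Type 2 (T2), open circles arrays on which the gene was not detected, and vertical lines part the types and batches. Arg1 runs from 4.66 to 11.79 with both types at either end, while Cx3cr1 stays between 8.62 and 11.14.

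Neutrophil genes were high in some of the same tumours. The mean over the neutrophil markers, 4 of 10 measured, was highest in Type 2 replicate 5 (2.52 above the mean of all tumours) and next in Type 1 replicate 6 (0.87), both high in Arg1. It ranged from -1.02 to 0.87 over Type 1 and from -0.80 to 2.52 over Type 2. It was at -0.97 in Type 1 replicate 3, which was also high in Arg1. The 4 markers did not move as one. In Type 2 replicate 5, S100a8, S100a9, Ltf and Mmp9 read 11.16, 8.68, 6.53 and 8.35. In Type 1 replicate 6, S100a8 and S100a9 read 9.38 and 7.50, while Ltf was not detected and Mmp9 read 6.45. The neutrophil genes Ngp, Camp, Retnlg, Cxcr2, Mmp8 and Ly6g were not measured. Their part in the Arg1 and F13a1 levels was not tested.

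Across the 14 tumours the resident genes and the infiltrating genes did not share an order. The median Pearson r between pairs of resident genes was 0.51, between pairs of infiltrating genes 0.59 and between a resident and an infiltrating gene 0.01. With values centred within each type and batch, these medians were 0.62, 0.66 and -0.16. For a further median r, the shared myeloid genes were pooled with the C1q genes and the adaptor and Fc receptor genes. It was 0.46 between resident genes and this pool, and 0.20 between infiltrating genes and this pool. These are descriptions over tumours that share chips and batches. Type 1 replicate 3 had the highest mean of the resident genes, at 1.35 above the mean of all tumours, and the sixth highest mean of the infiltrating genes. Type 1 replicate 6 had the lowest mean of the resident genes, at -0.90, with a mean of 1.16 in the infiltrating genes.

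The shared myeloid genes include the markers used most to stain these cells. Aif1 encodes Iba1, a calcium-binding protein of the actin skeleton. In batch 1 Aif1 read 8.30, 8.87 and 10.33 in Type 1 replicates 1 to 3, and 8.93, 8.05, 8.54 and 7.95 in Type 2 replicates 1 to 4. In batch 2 it read 9.68, 10.76, 9.44 and 9.62 in Type 1 replicates 4 to 7, and 10.31, 10.43 and 10.50 in Type 2 replicates 5 to 7. All 7 tumours of batch 2 lay above all Type 2 tumours of batch 1, and only Type 1 replicate 3 of batch 1 fell within the range of batch 2. Between types Aif1 differed by 0.13 ± 0.35 (SE), adjusted p = 0.868 by limma. Csf1r, the receptor on which microglial survival depends, read 7.27, 6.87 and 8.72 in Type 1 replicates 1 to 3, and 7.83, 7.16, 7.32 and 7.49 in Type 2 replicates 1 to 4 in batch 1. In batch 2 its levels were 8.20, 8.06, 7.05 and 7.15 in Type 1 replicates 4 to 7, and 8.46, 8.59 and 8.47 in Type 2 replicates 5 to 7. The types overlapped in batch 1, while in batch 2 every Type 1 tumour lay below every Type 2 tumour. Over both batches the Csf1r difference was -0.36 ± 0.31 (SE), adjusted p = 0.542 by limma.

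Irf8 encodes a transcription factor that works with PU.1 in myeloid cells. It ranged from 6.24 to 7.67 in Type 1, with a median of 6.74, and from 7.09 to 8.54 in Type 2, with a median of 7.83. The type ranges overlapped over both batches together, and in batch 2 alone they did not. Its mean was 6.90 ± 0.54 (SD) over the 7 Type 1 tumours and 7.83 ± 0.54 (SD) over the 7 Type 2 tumours. The difference was -0.95 ± 0.28 (SE) with a confidence interval from -1.55 to -0.35 and the lowest adjusted p of the members, 0.0667 by limma. It was -0.61 in batch 1 and -1.29 in batch 2, so Irf8 had the same sign in both, and without the 2 tumours high in choroid plexus genes it was -0.77 with an adjusted p of 0.247.

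Spi1, which encodes PU.1 itself, was detected on 6 of 14 arrays, 3 of them the Type 2 tumours of batch 2, and ranged from 4.80 to 6.09. Itgam was detected in Type 1 replicate 3 and in the 3 Type 2 tumours of batch 2 alone, between 5.44 and 6.05. Cd53, a leukocyte tetraspanin gene, ranged from 5.55 to 8.72, and Laptm5, which encodes a lysosomal membrane protein of blood cells, from 11.88 to 14.04. Cd14, the co-receptor for bacterial lipopolysaccharide, ranged from 6.89 to 10.72. Its 3 highest levels were those of the 3 Type 1 tumours of batch 1. The median difference of the 10 shared genes, -0.30, lay between extremes of -0.95 for Irf8 and 0.20 for Cd14.

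The 3 C1q genes encode the chains of the recognition protein that starts the classical complement pathway, made in the brain mainly by microglia. C1qb read 11.99, 11.75 and 13.21 in Type 1 replicates 1 to 3, and 11.99, 11.06, 11.80 and 11.21 in Type 2 replicates 1 to 4 in batch 1. In batch 2 C1qb read 12.01, 12.04, 11.28 and 11.16 in Type 1 replicates 4 to 7, and 12.44, 12.34 and 12.35 in Type 2 replicates 5 to 7. Type 1 replicate 3 was the highest of all tumours, and in batch 2 every Type 1 tumour lay below every Type 2 tumour. C1qa ranged from 9.10 to 11.98 and C1qc from 10.43 to 12.85, both highest in Type 1 replicate 3 as well. Over the tumours C1qa and C1qb went together, with a Pearson r of 0.910 and a Spearman rho of 0.895 (permutation p = 1e-05 for r, the smallest that 100000 resamples can give, and adjusted p = 5e-05 over 5 pairs). Without the 2 tumours farthest from the C1qa median, r was 0.846 over 12 tumours, and within batch 1 and batch 2 it was 0.973 and 0.956 (n = 7 each, exact permutation p = 0.00218 and 0.0111).

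Trem2 is a lipid-sensing receptor of microglia, and Tyrobp encodes DAP12, the ITAM adaptor through which it signals. Trem2 levels in batch 1 were 8.79, 8.33 and 10.68 in Type 1 replicates 1 to 3, and 8.43, 7.76, 8.69 and 8.28 in Type 2 replicates 1 to 4. In batch 2 they were 9.11, 9.88, 8.73 and 8.83 in Type 1 replicates 4 to 7, and 9.76, 10.15 and 9.78 in Type 2 replicates 5 to 7. Tyrobp read 8.71, 8.15 and 9.86 in Type 1 replicates 1 to 3, and 8.55, 7.74, 8.04 and 7.81 in Type 2 replicates 1 to 4 in batch 1. Tyrobp in batch 2 read 9.39, 9.98, 9.05 and 9.31 in Type 1 replicates 4 to 7, and 10.37, 10.31 and 10.53 in Type 2 replicates 5 to 7. In batch 2 all 3 Type 2 tumours lay above all 4 Type 1 tumours for Tyrobp, while for Trem2 Type 1 replicate 5 fell between them. The pair went together over the tumours, with r = 0.885 and rho = 0.903 (permutation p = 3e-05 for r, adjusted p = 7.5e-05). This r was 0.840 without the 2 tumours farthest from the Tyrobp median and 0.938 and 0.913 within batch 1 and batch 2 (n = 7 each, exact permutation p = 0.00536 and 0.0147). Neither gene was called between types, with differences of 0.11 ± 0.39 (SE) for Trem2 and -0.05 ± 0.34 (SE) for Tyrobp.

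Fcer1g encodes the common gamma chain of Fc receptors and ranged from 8.75 to 12.38. Fcgr2b encodes the inhibitory Fc receptor for IgG. Fcgr2b read 9.43, 8.80 and 9.76 in Type 1 replicates 1 to 3, and 10.33, 8.12, 10.49 and 8.50 in Type 2 replicates 1 to 4 in batch 1. In batch 2 it read 7.88, 7.82, 8.20 and 9.01 in Type 1 replicates 4 to 7, and 11.28, 10.81 and 9.87 in Type 2 replicates 5 to 7. The types overlapped in batch 1, and in batch 2 all 3 Type 2 tumours lay above all 4 Type 1 tumours. The mean of Fcgr2b was 8.70 ± 0.76 (SD) over the 7 Type 1 tumours and 9.91 ± 1.18 (SD) over the 7 Type 2 tumours, and the difference over both batches was -1.23 ± 0.50 (SE) (confidence interval from -2.29 to -0.16, limma adjusted p = 0.169). Without the 2 tumours high in choroid plexus genes it was -1.10 (adjusted p = 0.329). Within batch 2 the difference was -2.43 with an adjusted p of 0.0405 by limma on that batch alone, the single member called there, where 1.04% of all genes were called. Within batch 1 the difference was -0.03, and 0 of 32 members and 1.41% of all genes were called.

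Csf1 and Il34 encode the 2 ligands of Csf1r, of which Il34 is made mainly by neurons in the brain. In batch 1 Csf1 read 8.18, 8.02 and 8.71 in Type 1 replicates 1 to 3, and 7.92, 8.19, 7.61 and 7.67 in Type 2 replicates 1 to 4. Its batch 2 levels were 7.48, 7.93, 7.58 and 9.22 in Type 1 replicates 4 to 7, and 9.30, 8.76 and 9.05 in Type 2 replicates 5 to 7. In batch 2 Type 1 replicate 7 reached the Type 2 range, while the other 3 Type 1 tumours lay below it. Il34 read 8.37, 8.11 and 8.82 in Type 1 replicates 1 to 3, and 7.58, 7.64, 6.78 and 7.48 in Type 2 replicates 1 to 4 in batch 1. The batch 2 levels of Il34 were 6.37, 6.25, 6.19 and 7.31 in Type 1 replicates 4 to 7, and 7.12, 7.46 and 6.66 in Type 2 replicates 5 to 7. In batch 1 every Type 1 tumour lay above every Type 2 tumour for Il34, and in batch 2 the types overlapped. Neither ligand was called between types (Csf1 -0.27 ± 0.31 (SE), Il34 0.26 ± 0.30 (SE), limma adjusted p of 0.677 and 0.682). Neither followed the receptor over the 14 tumours past the test, with r = 0.434 between Csf1r and Csf1 (rho = 0.305, permutation p = 0.122, adjusted p = 0.203) and r = -0.024 between Csf1r and Il34 (rho = -0.037, permutation p = 0.933). The sign of both r values turned when values were centred within types and batches. The fifth pair, Cx3cr1 with Lyz2, gave r = 0.035 and rho = -0.037 (permutation p = 0.908).

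The second comparison asked whether the difference between types was the same in the 2 batches. It was above 0 in batch 1 for 27 of the 32 measured members, against 48.4% of all genes, and below 0 in batch 2 for 31, against 50.4%. Both held for 26 members and for 22.1% of all genes. The exceptions were Olfml3, Ms4a7, Adgre1, Irf8 and Fcgr2b, below 0 in both batches, and Sall1, at 0.10 and 0.00. Many members varied together over the tumours, so these are not counts of independent genes. The median difference of the members was 0.47 in batch 1 and -0.81 in batch 2, while over all genes it was -0.02 and -0.00. Every role had its median above 0 in batch 1 and below 0 in batch 2. The batch 1 and batch 2 medians were 0.45 and -0.78 for resident genes and 0.17 and -0.88 for infiltrating genes. They were 0.31 and -0.90 for shared myeloid genes, 1.06 and -0.70 for C1q genes, 0.89 and -0.89 for adaptor and Fc receptor genes, and 0.76 and -0.77 for ligands.

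Cd14 and Itgam had the lowest p of the members in the test of this difference. Cd14 levels in batch 1 were 10.72, 9.38 and 9.70 in Type 1 replicates 1 to 3, and 9.31, 7.28, 8.79 and 8.22 in Type 2 replicates 1 to 4. In batch 2 they were 7.28, 6.89, 7.005 and 7.39 in Type 1 replicates 4 to 7, and 7.88, 7.77 and 9.18 in Type 2 replicates 5 to 7. All Type 1 tumours were above all Type 2 tumours in batch 1 and below them all in batch 2. The Cd14 difference was 1.53 in batch 1 and -1.13 in batch 2. Batch 2 minus batch 1, the difference between types was -2.67 ± 0.66 (SE), with an adjusted p of 0.115 by limma. Cd53 differed between types by 0.66 in batch 1 and -1.37 in batch 2, and Tyrobp by 0.87 and -0.97.

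None of the members was called in the limma test of this interaction, where 0.0% of all genes were called, and the lowest adjusted p of a member was 0.115 (0.273 without the 2 tumours high in choroid plexus genes). At an unadjusted p under 0.05 there were 16 of 32 members against 16.4% of all genes. All 16 had a lower difference in batch 2, a direction that 8.97% of all genes took at that p. In batch 1, 5 members (Itgam, Cd14, C1qa, C1qc and Il34) had every Type 1 tumour above every Type 2 tumour, against 9.75% of all genes, and 0 members had every Type 1 tumour below, against 8.88%. In batch 2, 14 members had every Type 1 tumour below every Type 2 tumour, against 9.36% of all genes, and 0 members had them above, against 8.08%. The 14 were Olfml3, Csf1r, Itgam, Adgre1, Spi1, Irf8, Cd53, Laptm5, Ctss, Cd14, C1qb, C1qc, Tyrobp and Fcgr2b. These orders hold values below detection for Itgam and Spi1. Itgam was detected in batch 1 in Type 1 replicate 3 alone and in batch 2 in none of the 4 Type 1 tumours. Spi1 was not detected in Type 1 replicates 4, 6 and 7 of batch 2.

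**Figure D3:**
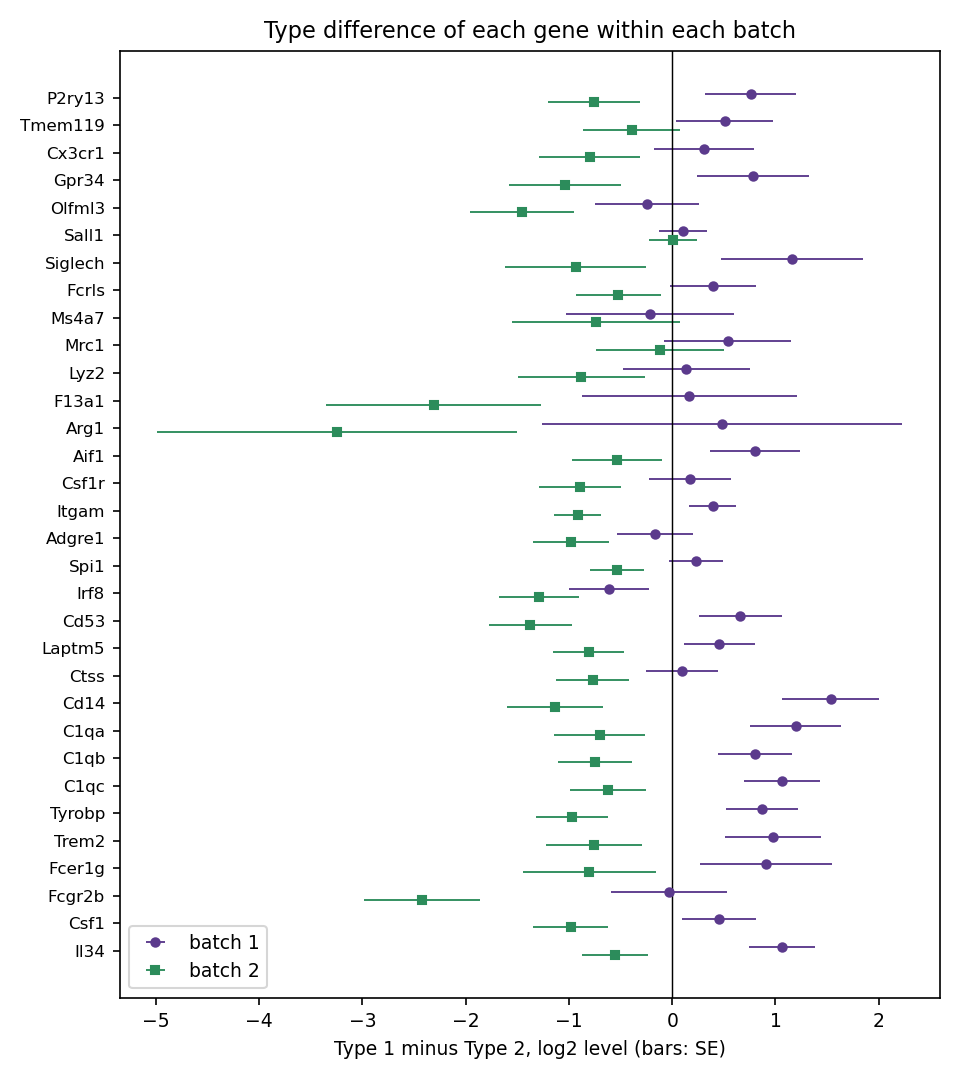
Difference between types (Type 1 minus Type 2, log2 level) of each of the 32 measured members within batch 1 (purple circles) and within batch 2 (green squares), with bars for the standard error. In batch 1, 27 of 32 differences lie above 0, and in batch 2, 31 of 32 lie below 0.

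A single tumour carried much of the batch 1 side of this pattern. Type 1 replicate 3 was the highest of the 7 Type 1 tumours for 21 of the 32 measured members, among them 7 of 8 resident genes and 3 of 3 C1q genes. Without it, the median difference in batch 1 was 0.12, and 19 of 32 members lay above 0. In that fit 11 members had an interaction p under 0.05 against 13.4% of all genes. Leaving out Type 1 replicate 2 moved that median the other way, to 0.73. The batch 2 median stayed between -1.004 and -0.68 whichever tumour was left out, and without the 2 tumours high in choroid plexus genes it was -0.85. Type 1 replicate 3 also had the highest means of astrocyte markers (8 of 8 measured, 1.56 above the mean of all tumours), of T and NK cell markers (5 of 14 measured, 0.96) and of dendritic cell markers (3 of 8 measured, 0.84). Over the other 6 Type 1 tumours the astrocyte mean ran from 0.11 to 0.77, and over Type 2 from -1.31 to 0.22. The T cell genes Cd3d, Cd3g, Cd8a, Cd4 and Lck were not measured. Their part in the levels of the members was not tested.

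**Figure D4:**
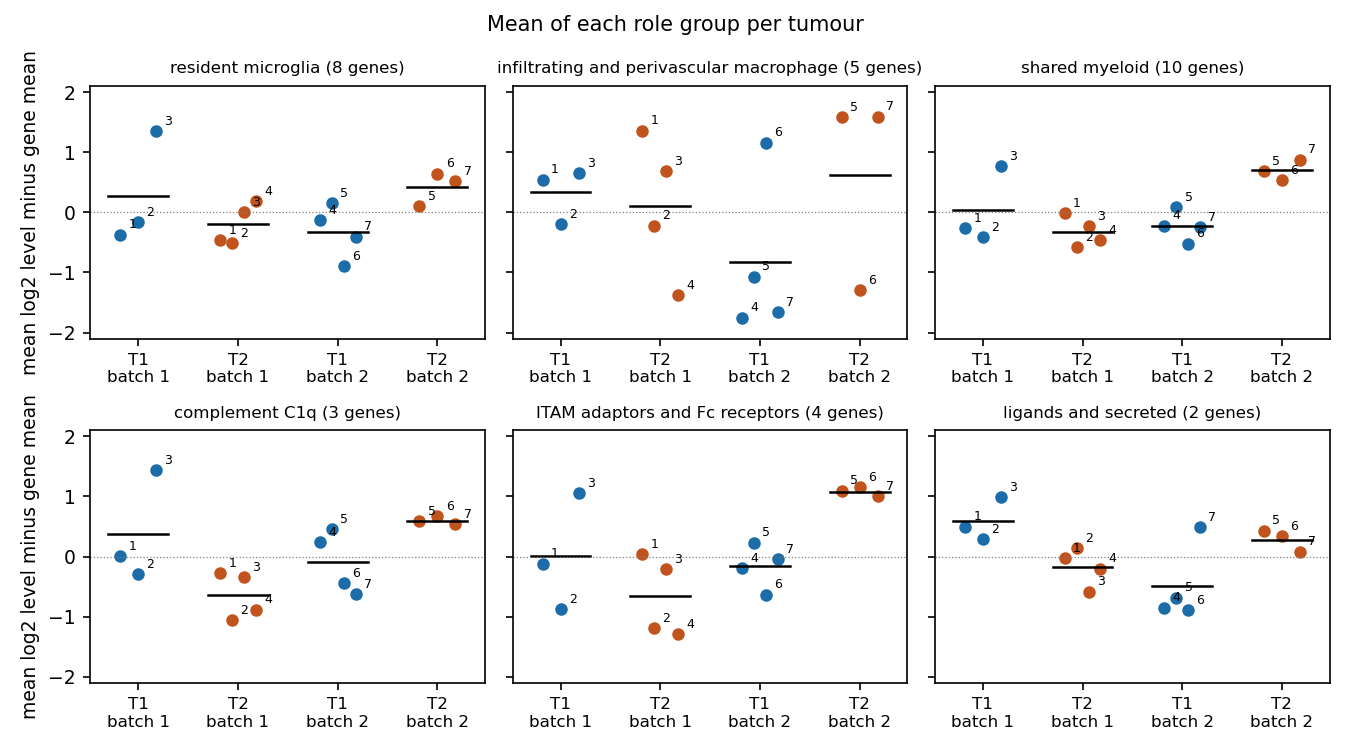
Mean over the measured genes of each role of the log2 level minus the gene's mean over all tumours, for each tumour (points, numbered by replicate), by type (T1 blue, T2 orange) and batch. Horizontal lines are the means of the tumours in each column. Type 1 replicate 3 stands above the other Type 1 tumours of batch 1 in the resident genes, at 1.35.

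Batch itself was tested as a term of the model. The labels number the batches and do not say what sets them apart. Between batches 5 of 32 members were called by limma, where 10.7% of all genes were called. Of them, 4 were higher in batch 2 (6.25% of all genes) and 1 was lower (4.42%). Ctss, the gene for the lysosomal protease cathepsin S, read 5.88, 5.51 and 7.42 in Type 1 replicates 1 to 3, and 6.25, 6.41, 6.18 and 5.86 in Type 2 replicates 1 to 4 in batch 1. In batch 2 Ctss read 7.12, 7.27, 6.86 and 7.15 in Type 1 replicates 4 to 7, and 7.69, 7.94 and 7.98 in Type 2 replicates 5 to 7. Its 7 levels in batch 2 lay above those of batch 1, except for Type 1 replicate 3. Ctss was higher in batch 2 by 1.26 ± 0.27 (SE), limma adjusted p = 0.00812. Adgre1, which encodes an adhesion-type receptor on the surface of macrophages, had levels in batch 1 of 6.42, 7.18 and 7.90 in Type 1 replicates 1 to 3, and 7.80, 6.85, 7.52 and 7.17 in Type 2 replicates 1 to 4. In batch 2 Adgre1 had levels of 7.36, 8.33, 7.79 and 7.46 in Type 1 replicates 4 to 7, and 8.39, 8.48 and 9.29 in Type 2 replicates 5 to 7. The batches overlapped, through Type 1 replicate 3 and Type 2 replicates 1 and 3 of batch 1. Adgre1 was higher in batch 2 by 0.98 ± 0.27 (SE) (adjusted p = 0.0351), but by 0.38 and no longer called when its 3 probes were averaged.

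Aif1 and Tyrobp, whose levels are given above, were higher in batch 2 by 1.38 ± 0.35 (SE) and 1.45 ± 0.34 (SE) (limma adjusted p = 0.021 and 0.0149). Il34 was lower in batch 2, by -1.10 ± 0.30 (SE) (adjusted p = 0.0331). In the authors' processed values none of the 5 was called between batches, and 0 of 11786 genes were, with 479 at an unadjusted p under 0.05. Those values held hardly any batch difference for the genes as a whole. The lost calls therefore cannot decide whether the 5 differ between batches. The count of 5 also moved with single tumours. Leaving out Type 1 replicate 3 made it 9, with 1130 of all 11786 genes called, and leaving out Type 1 replicate 1 made it 2, with 882. It was 3 without Type 1 replicate 5 (1039 genes), Type 2 replicate 6 (906) or Type 2 replicate 7 (867). Without the 2 tumours high in choroid plexus genes, Ctss alone was called, and 674 genes in all.

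Further genes of the same cells were counted from wider lists. Among the other homeostatic microglia genes, 18 of 24 measured, none was called between types, and the median difference was -0.14. In batch 1 and batch 2 it was 0.27 and -0.47. Rgs10 of this list, a regulator of G protein signalling, was higher in batch 2 by 1.21 (limma adjusted p = 0.00423). Of the disease-associated microglia genes, 22 of 23 measured, Lpl, the lipoprotein lipase gene, was higher in Type 1 by 1.63 (adjusted p = 0.0185), and Cd9, a tetraspanin gene, was lower by 1.04 on the log2 scale (adjusted p = 0.0333). Both are also made by other brain cells, and Cd9 was named after its values were seen. The median of that list was -0.22, with 0.12 in batch 1 and -0.61 in batch 2.

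Phagocyte oxidase and myeloid signalling genes, 19 of 29 measured, had a median of -0.24, with 0.36 in batch 1 and -0.92 in batch 2 and none called between types. Pattern recognition genes, 14 of 21 measured, had a median of -0.40, with 0.35 in batch 1 and -1.09 in batch 2, and again none called. Perivascular macrophage genes (6 of 12 measured, median -0.45) and monocyte genes (9 of 15, median -0.26) gave no call between types either. Their batch 1 and batch 2 medians were 0.08 and -0.77 for perivascular genes and -0.11 and -0.30 for monocyte genes. Of the monocyte list, the fibronectin gene Fn1 was lower in batch 2 (difference -1.44, limma adjusted p = 0.00613). The calcium-binding protein genes S100a6 (1.54, adjusted p = 0.0187) and S100a4 (1.32, adjusted p = 0.0297) were higher there and were named after their values were seen. Of the activation genes, 12 of 17 measured, Tgfbi was lower in Type 1 (-1.87, limma adjusted p = 0.0408) and was named after its values were seen, and the median was -0.40, with -0.07 in batch 1 and -0.65 in batch 2. Genes of the colony-stimulating factor axis and of recruitment, 13 of 17 measured, had a median of 0.04, with 0.25 in batch 1 and -0.16 in batch 2, and no call between types.

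MHC class II genes, which present antigen on macrophages and activated microglia, were all measured, 7 of 7. Their median difference was -1.11, with -0.54 in batch 1 and -1.85 in batch 2, so unlike most members they had the same sign in both batches. The only one called was H2-Ab1, at -2.40 ± 0.49 (SE) and a limma adjusted p of 0.0172, and the other 6 were not called. H2-Ab1 ranged from 6.10 to 9.79 in Type 1 and from 10.00 to 11.11 in Type 2, with no overlap. Cd74 and H2-Aa, named after their values were seen, overlapped between types. Cd74 read 10.41 in Type 1 replicate 3 and 7.58 in Type 2 replicate 4. H2-Aa read 8.03 in Type 1 replicate 6 and was not detected in Type 2 replicate 4.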

How the data were processed

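For every array and 45281 probes, the deposited raw table gave 2 columns per the file headers, the mean bead signal intensity, not normalized by the authors, and a detection p-value. The submitters' processing notes name BeadStudio, without a version. Log2 values that the authors had processed were deposited too, for 38502 probes. The centring of its probes stays unknown, so only differences between its arrays were used, as an alternative.

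The neqc function of limma 3.58.1 (R 4.3.3) corrected the background by normexp through the detection p-values, added an offset of 16 and quantile-normalized the arrays. Symbols were those of the platform annotation (possibly outdated), matched by Entrez identifier to a RefSeq gene table (GRCm38.p6, 31976 of 32034 probes with 1 symbol). A further 16 probes had several symbols and 13231 had none, and these were left out. Probes with a detection p under 0.05 on at least 3 arrays were kept, 18430 in all, and the probe with the highest mean stood for its gene. Of the measured members, 9 had more than 1 kept probe, and the sign of the difference between types was the same for all kept probes of each. The limma models (lmFit, eBayes) held type and batch, or type, batch and their interaction. The type term of the model with type and batch was tested on simulated data, and the batch and interaction terms were not. Correlations used two-sided permutation tests with 100000 resamples over 14 tumours and exact ones within batches, over 5 of 8 listed pairs.

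The members, the lists and the tests were chosen with earlier results of these data known. Values in every tumour are given for members past a test and for a list of members named by the same rule, and 12 genes outside the members are named by lowest p. Beyond that rule, Cd9, Tgfbi, S100a4, S100a6, Cd74 and H2-Aa are named after their values were seen. The same holds for the values of the neutrophil genes S100a8, S100a9, Ltf and Mmp9. The labels call the 14 samples separate tumours and p-values measure only the spread between these. Replicate numbers follow accession order and pair nothing. One element of the design goes unreported.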

Additional observations from a re-analysis of the deposited data

Results flagged for a closer look

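In 64 groups of 7 tumours (32 measured members in each type), the highest or lowest level stood far from the rest by Dixon's criterion (gap over range above 0.568) in 2, and chance gives this in about 1 of 20 groups. Both were Type 1 replicate 3. Sall1 read 9.20 there, with the next Type 1 tumour at 8.69 and a gap of 0.606 of the range. C1qb read 13.21, with the next at 12.04 and a gap of 0.572 of the range.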

How the results depend on the processing

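No paired analysis was possible because the replicate numbers were given in accession order and pair no tumours. The number of members called between types, 0, became 1 in batch 2 alone (Fcgr2b), where 123 of 11786 genes were called. It was 1 with array weights (Irf8, 774 genes) and 1 at an adjusted p under 0.1 (Irf8, 1135 genes). With each tumour left out it was 0 to 2, while 195 to 639 genes were called. The interaction count of 0 became 19 with chip as a random block, where 2603 of 11786 genes were called. That fit had a consensus correlation of -0.242, estimated where a type in a batch spans more than 1 chip. The batch count of 5 was 0 with the authors' values and 1 without the 2 tumours high in choroid plexus genes (674 genes called). It was 1 at an adjusted p under 0.01 (475 genes), and 2 to 9 with each tumour left out (867 to 1334 genes). In the authors' values, where 0 of 11786 genes were called between batches, the batch difference turned to -0.13 for Adgre1 and -0.13 for Ctss. Median scaling shifted the median batch difference of all genes to -0.39, with 4178 genes called. The members called became Ctss, Tyrobp, Il34, Cd14, Mrc1, Olfml3 and Sall1, while Aif1 (0.85, limma adjusted p = 0.0632) and Adgre1 (0.44, adjusted p = 0.216) lost the call. The median type difference in batch 1 alone was 0.47 for all members, and in batch 2 alone it was -0.81 for all members and -0.78 for resident genes. With each tumour left out it lay between -0.42 and -0.02 for all members, -0.38 and 0.11 for resident genes and -0.74 and -0.26 for infiltrating genes. The r of Csf1r with Csf1 turned to -0.015 with values centred within types and batches. That of Csf1r with Il34 turned to 0.176 centred, 0.451 in batch 1, 0.247 in batch 2, 0.343 in the authors' values and 0.262 with median scaling. That of Cx3cr1 with Lyz2 turned to -0.122 centred, -0.059 in batch 2 and -0.121 without the 2 farthest tumours. Causes were not tested. Itgam and Spi1 stayed near background in all tumours, with highest levels of 6.05 and 6.09. Siglech, F13a1, Arg1 and Mrc1 were near background only in some tumours, and reached 8.28, 9.19, 11.79 and 8.40 in others. Levels near background are limited by the signal over background.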

Other observations

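Markers of other cells give the setting of the members. Astrocyte genes (8 of 8 measured, median difference 1.56) included Sox9 (1.67, limma adjusted p = 0.00688) and Slc1a2 (2.03, adjusted p = 0.0158), both higher in Type 1, and S100b, which was lower (-1.48, adjusted p = 0.0282). Neuron genes (10 of 12, median 0.98) included Rbfox3, higher in Type 1 by 2.65 (adjusted p = 0.0185). Endothelial genes (8 of 8, median -0.73) included Vwf (-1.78, adjusted p = 0.0057) and Tie1 (-0.87, adjusted p = 0.0101), the latter detected on 1 of 7 Type 1 arrays. Fibroblast and mural genes (7 of 8, median -1.14) included Lum (-2.47, adjusted p = 0.0143), detected on 4 of 7 Type 1 arrays, and Rgs5 (-1.46, adjusted p = 0.0185). None of the measured T and NK cell genes (5 of 14), B cell genes (1 of 5), neutrophil genes (4 of 10) or dendritic cell genes (3 of 8) was called between types, and 0 of 6 mast cell genes were measured. Type 1 replicate 2 stood 4.27 above the mean of all tumours in red blood cell genes (2 of 4 measured).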
